A study of Mus musculus with 10 samples.

Results

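Annexins are proteins that bind phospholipid membranes in the presence of calcium, through a core of repeated domains that the members share and an amino-terminal tail that differs between them. The tail carries the sites at which partners such as the small calcium-binding S100 proteins dock. In the heart, annexins are known for membrane repair, for binding of exposed phosphatidylserine and for calcium handling, and they are made both by cardiomyocytes and by the other cells of the ventricle.

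The 9 members described here, Anxa1, Anxa2, Anxa3, Anxa4, Anxa5, Anxa6, Anxa7, Anxa8 and Anxa11, were found by gene name among the 55401 genes of the tables, and all 9 were among the 11867 genes that passed the filter of a mean of at least 1 FPKM (mapped fragments scaled to transcript length and library depth, so a level per length). Left ventricular (LV) RNA was compared between 5 mice with neonatal ascending aortic constriction (nAAC), an operation on the newborn that narrows the ascending aorta and loads the LV with pressure, and 5 sham-operated mice. All 10 mice were wild type and 4 weeks of age, each gave 1 library, and pups of both groups stayed with their mothers. The labels give neither sex nor litter. Anxa8 passed the filter only through its level in nAAC mice (mean 2.72 FPKM), since its mean in sham mice was 0.450 FPKM. The tissue is bulk LV, so a change in the number of cells of a type and a change in RNA per cell cannot be told apart.

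Libraries differed in composition between the groups. Depth estimated from the tables was 4.86 to 6.82 Gb in nAAC and 5.06 to 5.24 Gb in sham mice, and 11889 to 12455 against 11182 to 11721 genes reached 1 FPKM. Mitochondrial transcripts took 32.8 to 39.9% of TPM in nAAC mice, 46.5 to 49.8% in sham mice 1 to 3, and 33.7 and 38.3% in sham mice 4 and 5. Their part in the shift of all genes was not tested. The median gene tested was higher in nAAC mice by 0.22 on the log2 scale, and the difference was -0.0024 after median-ratio scaling. Each change given below in FPKM is to be set beside the first of these shifts. The first principal component held 54.7% of the variance and separated nAAC from sham mice. Sham mouse 4 lay apart from the other 9 libraries on the second component.

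In the LV of nAAC mice, 7 of the 9 annexins rose and none fell. Anxa2, Anxa8, Anxa1 and Anxa4 were more than doubled on average (ratio of mean FPKM 2.67, 6.03, 2.60 and 2.36), and Anxa3, Anxa5 and Anxa7 rose less (1.85, 1.80 and 1.54). Anxa6, the most abundant annexin of the sham LV by FPKM, and Anxa11 did not pass the test (1.07 and 1.10). A gene was called changed at a Benjamini-Hochberg adjusted p below 0.05 in limma over all genes tested, a rule under which 27.1% of the genes tested were higher in nAAC mice and 4.6% lower. DEGs also had a log2 fold change (FC) beyond 1 on the log2(FPKM + 1) scale. Since other scalings centre the genes near 0, they divide these calls otherwise: 13% of genes were higher and 12.1% lower after median-ratio scaling, and 14.2% and 16.1% with the trend of each library on GC content and length removed, and 7 annexins were higher under both. Of the members 4 were up-regulated DEGs, against 5.01% of the genes tested, and none was a down-regulated DEG, against 0.893%. Anxa8, counted both among the 7 and among the 4, entered the test only through its level in nAAC mice. After median-ratio scaling 3 members were up-regulated DEGs (3.09% of genes up, 1.76% down), as with the GC and length trend removed (2.67% up, 1.74% down). The median log2 FC of the 9 members was 0.84.

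The members are encoded on 7 chromosomes (GRCm38), all as protein-coding genes, and their coordinates in the tables are those of GENCODE M21. Anxa7 (chr14:20455260-20480133, minus strand), Anxa11 (chr14:25842156-25886804, plus strand) and Anxa8 (chr14:34085981-34100571, plus strand) share chromosome 14 and took 3 different courses: a rise of modest size, no call and the highest ratio of the family. Anxa1 lies at chr19:20373428-20390944 (minus strand), Anxa2 at chr9:69453620-69491795 (plus strand), Anxa3 at chr5:96793339-96845966 (plus strand), Anxa4 at chr6:86736840-86793584 (minus strand), Anxa5 at chr3:36448923-36475894 (minus strand) and Anxa6 at chr11:54979108-55033445 (minus strand). Values are per gene and sum the annotated transcripts, of which Anxa7 has 11 and Anxa8 has 2. Genes that overlap a member in the annotation were low, at a mean of at most 0.122 FPKM. The highest was Gm16144, antisense in Anxa2.

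The study concerns signalling through the aryl hydrocarbon receptor, a ligand-activated transcription factor whose response element has the core GCGTG. The 250 bases before the start site were available from RefSeq (GRCm38.p6) for 7 members, and are shown for the 2 members with the largest log2 FC, for 2 further members that rose, and for Anxa11, which was not called. Capitals mark GCGTG on either strand (CACGC on the other) and the AP-1 motif TGANTCA, which reads the same on both. The Anxa2 stretch is shortened to the bases outside the gene as GENCODE draws it. The Anxa5 stretch is not shortened. Its last bases, with part of the last marked GCGTG, lie inside the gene, which ends at 36475894.
Anxa2 promoter, chr9:69453433-69453619 (plus strand): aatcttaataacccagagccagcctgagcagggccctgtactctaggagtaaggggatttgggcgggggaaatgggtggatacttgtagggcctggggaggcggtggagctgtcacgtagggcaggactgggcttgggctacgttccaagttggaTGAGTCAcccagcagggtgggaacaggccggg
Anxa8 promoter, chr14:34085729-34085978 (plus strand): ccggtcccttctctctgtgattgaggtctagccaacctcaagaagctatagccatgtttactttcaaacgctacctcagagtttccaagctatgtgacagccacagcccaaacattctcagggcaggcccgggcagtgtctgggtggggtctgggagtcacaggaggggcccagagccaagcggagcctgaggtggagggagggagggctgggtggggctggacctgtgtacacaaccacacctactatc
Anxa4 promoter, chr6:86793585-86793834 (minus strand): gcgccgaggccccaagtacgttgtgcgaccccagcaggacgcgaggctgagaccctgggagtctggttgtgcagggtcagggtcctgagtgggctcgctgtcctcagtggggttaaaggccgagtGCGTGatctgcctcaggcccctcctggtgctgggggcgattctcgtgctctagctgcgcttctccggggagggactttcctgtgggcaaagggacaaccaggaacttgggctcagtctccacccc
Anxa5 promoter, chr3:36475888-36476137 (minus strand): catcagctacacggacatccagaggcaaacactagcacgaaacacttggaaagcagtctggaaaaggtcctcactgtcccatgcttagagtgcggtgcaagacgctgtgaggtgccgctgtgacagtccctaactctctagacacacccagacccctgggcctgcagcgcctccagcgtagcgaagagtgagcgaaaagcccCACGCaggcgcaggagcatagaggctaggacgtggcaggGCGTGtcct
Anxa11 promoter, chr14:25841905-25842154 (plus strand): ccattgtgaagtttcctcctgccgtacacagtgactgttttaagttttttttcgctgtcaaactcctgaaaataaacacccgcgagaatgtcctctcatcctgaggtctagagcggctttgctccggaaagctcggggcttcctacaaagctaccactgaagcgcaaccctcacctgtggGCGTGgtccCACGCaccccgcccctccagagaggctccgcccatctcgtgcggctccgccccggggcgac

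The 7 members had 9 such promoters, since some have more than 1 start site. Start sites are those of RefSeq, and some windows lie within the gene as GENCODE draws it. That holds for the whole Anxa1 window (chr19:20390672-20390921) and for 1 Anxa4 window (chr6:86775115-86775364). The GCGTG of Anxa7, 16 bases from a RefSeq start, also lies within the gene. GCGTG was present in 5 of the 9, which belong to Anxa4, Anxa5, Anxa7 and Anxa11, and in 28.2% of all 32851 promoters of the same length. Anxa2, Anxa8 and Anxa1, the 3 members with the largest log2 FC, had none in these windows, and Anxa11, which was not called, had 2 within 70 bases of its start. TGANTCA stood only before Anxa2, 95 bases from the RefSeq start site, and in 6.75% of all promoters. The printed Anxa2 stretch leaves out the last 63 bases before that start. GGAATG, the TEAD motif (CATTCC on the other strand), stood only in the Anxa1 window, and in 12.6% of all. These are matches of letters, with no measurement of binding behind them, and for Anxa3 and Anxa6 no promoter was searched.

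**Figure D1:**
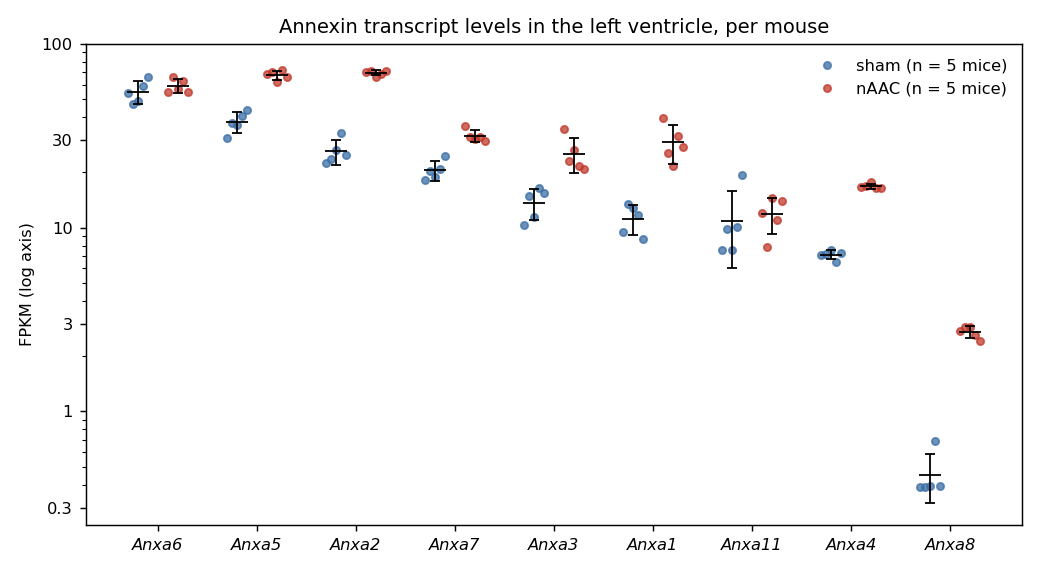
FPKM of each annexin in every mouse, on a log axis, with members ordered by their mean in sham mice. Points are mice (blue, sham; red, nAAC; n = 5 each) and black bars give the mean and SD. For 7 members all red points lie above all blue points, while Anxa6 and Anxa11 overlap.

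Anxa2 had the largest log2 FC of the family as fitted on log2(FPKM + 1). It stood just above Anxa8 there, while Anxa8 was ahead with TPM (1.72 against 1.58), median-ratio scaling (1.22 against 1.12), upper-quartile scaling (1.23 against 1.14), the GC and length trend removed, rescaled coverage (1.36 against 1.27) and 0.1 FPKM added (2.38 against 1.43). Anxa2 forms a complex with S100a10 that binds plasminogen and its activator at the cell surface. Its level in nAAC mice 1 to 5 was 70.4, 71.4, 66.5, 68.6 and 71.4 FPKM, and in sham mice 1 to 5 it was 22.5, 23.7, 26.4, 32.8 and 24.8 FPKM. The nAAC mice were tightly grouped (coefficient of variation 3.05%, against 15.5% in sham mice), and the lowest of them was 2.03 times the highest sham mouse. The means were 69.6 ± 2.12 and 26.0 ± 4.04 FPKM (mean ± SD over 5 mice per group). Anxa2 had a log2 FC of 1.40 ± 0.12 (SE) and a limma adjusted p of 3.26e-06.

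Anxa1, a glucocorticoid-induced protein that dampens inflammation through formyl peptide receptors, was at 39.6, 25.4, 21.6, 31.6 and 27.5 FPKM in nAAC mice and at 9.42, 13.4, 12.7, 11.7 and 8.70 FPKM in sham mice. It rose about as far as Anxa2 but varied more among nAAC mice (coefficient of variation 23.6%), and the groups did not overlap. Anxa1 had a log2 FC of 1.29 ± 0.17 (SE, limma adjusted p = 9.96e-05). Its receptor genes were barely detected: Fpr1 and Fpr2 had mean levels of at most 0.234 FPKM in either group, and Fpr3 was listed at 0 in all 10 libraries.

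Anxa8, known as an inhibitor of blood coagulation, was the least abundant member by FPKM. It was at 2.74, 2.90, 2.89, 2.62 and 2.42 FPKM in nAAC mice and at 0.387, 0.386, 0.393, 0.689 and 0.395 FPKM in sham mice. Every nAAC mouse stood above every sham mouse, and the lowest nAAC level was 3.52 times the highest sham level, which came from sham mouse 4. The log2 FC was 1.36 ± 0.10 (SE, limma adjusted p = 8.14e-07). That value understates the change of a gene this low, because 1 FPKM is added before the logarithm, and with 0.1 FPKM added it was 2.38. In the fit without the filter the limma adjusted p of Anxa8 was 2.32e-05.

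Anxa5 binds phosphatidylserine with high affinity and is in wide use as a probe of dying cells. It was at 68.8, 70.2, 62.2, 72.0 and 65.7 FPKM in nAAC mice and at 30.9, 37.0, 36.2, 40.5 and 43.6 FPKM in sham mice. By FPKM, Anxa5 thus reached the level of Anxa2 in nAAC mice from a higher level in sham mice, with no overlap between the groups. In the deposited coverage (read depth over a gene) Anxa5 stood above Anxa2 in both groups. The means were 360 against 86.2 in nAAC mice and 188 against 30.7 in sham mice. For Anxa5 the log2 FC was 0.84 ± 0.12 (SE, limma adjusted p = 1.99e-04).

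Anxa4, a membrane-binding annexin abundant in epithelia, had the smallest relative spread among sham mice (coefficient of variation 5.62%). It was at 16.7, 16.8, 17.7, 16.5 and 16.4 FPKM in nAAC mice and at 7.13, 7.23, 7.55, 6.47 and 7.26 FPKM in sham mice. The groups were far apart beside their spread, and the log2 FC was 1.13 ± 0.09 (SE, limma adjusted p = 2.17e-06). Its place among the DEGs depended on the scale, since the log2 FC was 0.88 after median-ratio scaling, still past the adjusted p.

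Anxa3, first described as an inhibitor of phospholipase A2, was at 34.4, 23.1, 26.6, 21.8 and 20.9 FPKM in nAAC mice and at 10.4, 14.9, 11.4, 16.4 and 15.4 FPKM in sham mice. The groups did not overlap, but nAAC mouse 1 stood above the other 4 nAAC mice. The log2 FC was 0.84 ± 0.16 (SE, limma adjusted p = 0.00199).

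Anxa7, or synexin, binds the calcium-binding protein sorcin (Sri). It was at 35.7, 31.2, 30.2, 31.3 and 29.6 FPKM in nAAC mice and at 18.2, 20.3, 18.8, 20.8 and 24.6 FPKM in sham mice. This was the smallest of the 7 rises, and the lowest nAAC mouse exceeded the highest sham mouse by a factor of 1.20. Anxa7 had a log2 FC of 0.60 ± 0.12 (SE, limma adjusted p = 0.00163).

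Anxa6, the member with a duplicated core and an abundant annexin of heart muscle, was at 54.5, 66.0, 57.0, 63.3 and 54.5 FPKM in nAAC mice and at 54.2, 47.2, 48.7, 59.1 and 66.3 FPKM in sham mice. The groups overlapped, and sham mouse 5 was above all nAAC mice. For Anxa6 the log2 FC was 0.11 with a 95% interval of -0.17 to 0.38 (limma adjusted p = 0.551, exact permutation p = 0.349). Anxa6 lay below the median shift of all genes, and its direction depended on the scaling: the log2 FC was -0.17 after median-ratio scaling (adjusted p = 0.263) and -0.24 with the GC and length trend removed, where it was called lower (adjusted p = 0.0342).

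Anxa11, which has a long tail and binds S100a6, was the most variable member among sham mice (coefficient of variation 44.8%, against 22.3% in nAAC mice). It was at 12.0, 7.89, 14.5, 11.1 and 14.1 FPKM in nAAC mice and at 7.52, 9.83, 7.60, 10.1 and 19.3 FPKM in sham mice. Sham mouse 5 was above every nAAC mouse and nAAC mouse 2 lay among the sham mice. The log2 FC was 0.17 with a 95% interval of -0.32 to 0.67 (limma adjusted p = 0.581, exact permutation p = 0.524). Without sham mouse 5 it was 0.39 (adjusted p = 0.0987), and after median-ratio scaling it was -0.080.

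For each of the 7 members that rose, all 5 nAAC mice were above all 5 sham mice, as they were for 18.9% of the genes tested, and the exact permutation p was 0.0079, the smallest that 5 against 5 mice allow. These 7 stayed past the adjusted p in all 19 alternative fits, among them those without each of the 10 mice in turn. Anxa6 passed in 1 and Anxa11 in none.

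**Figure D2:**
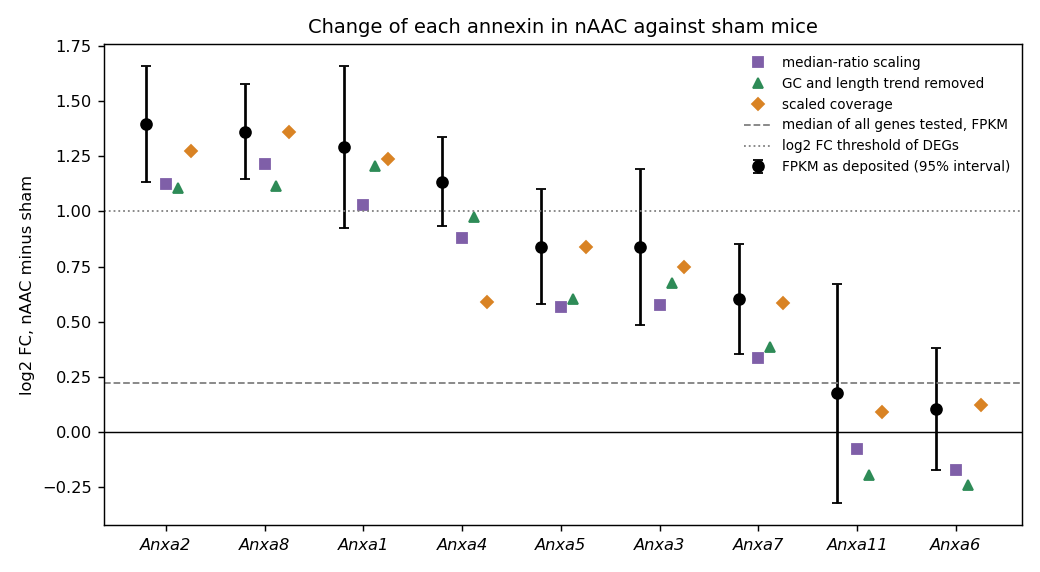
The log2 FC of each annexin in nAAC against sham mice, as fitted on log2(FPKM + 1) with its 95% interval (black) and under 3 other treatments of the data (colours). The dashed line is the median of all genes tested, 0.22, and the dotted line is a log2 FC of 1. Anxa6 and Anxa11 lie on both sides of 0 depending on the treatment, and Anxa4 falls below 1 under all 3.

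The make-up of the annexin pool changed. Summed over the 9 members, annexin FPKM was 314.0 ± 14.2 in nAAC and 182.6 ± 20.9 in sham mice, with ranges of 299.3 to 334.9 and 160.7 to 210.3. Of the rise in the mean sum, Anxa2 gave 33.2%, Anxa5 23.0% and Anxa1 13.7%, while Anxa8, despite its ratio of 6.03, gave 1.72%. In the deposited coverage, the mean read depth over a gene, rescaled to each library's FPKM, the order was another: Anxa5 gave 45.6% of the rise, Anxa1 15.7% and Anxa2 15.2%. Anxa6 fell from the largest share of the pool, 30.2% ± 2.55 in sham mice, to 18.8% ± 1.79 in nAAC mice, with no change in its own level past the test. Anxa2 went from 14.3% ± 1.82 to 22.2% ± 1.01. The share of Anxa5 was 20.6% ± 0.840 in sham and 21.6% ± 0.909 in nAAC mice by FPKM, and 32.2% ± 1.39 and 37.0% ± 0.595 by coverage. Anxa1 went from 6.22% to 9.22% and Anxa4 from 3.95% to 5.37%, and Anxa11 from 5.82% to 3.82%. These shares are a description with no test. They do not depend on scaling between libraries but do depend on the column used.

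**Figure D3:**
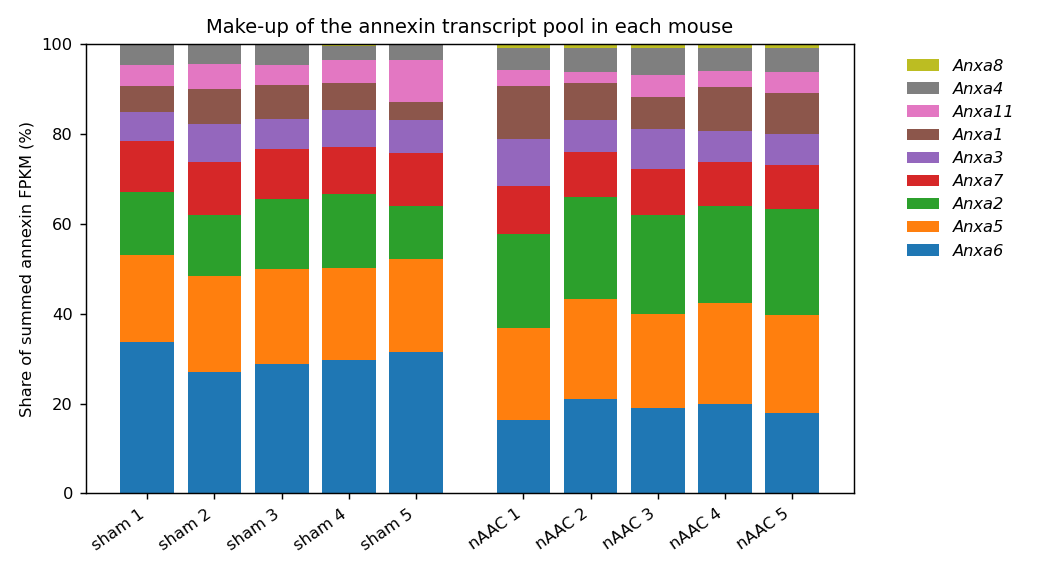
Share of each annexin in the summed FPKM of the 9 members, in percent, 1 bar per mouse. Anxa6 (bottom, blue) averages 30.2% in sham and 18.8% in nAAC mice and Anxa2 (green) 14.3% and 22.2%, while Anxa5 (orange) is at 20.6% and 21.6%, all by FPKM.

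Ordered by mean FPKM, the sham LV held Anxa6, Anxa5, Anxa2, Anxa7, Anxa3, Anxa1, Anxa11, Anxa4 and Anxa8, and the nAAC LV held Anxa2, Anxa5, Anxa6, Anxa7, Anxa1, Anxa3, Anxa4, Anxa11 and Anxa8. The ranges of many neighbours overlapped across mice. In nAAC mice this held for Anxa2 and Anxa5, Anxa5 and Anxa6, Anxa7 and Anxa1, and Anxa1 and Anxa3, and in sham mice for Anxa5 and Anxa2, Anxa2 and Anxa7, Anxa3 and Anxa1, Anxa1 and Anxa11, and Anxa11 and Anxa4. Within single mice the order was firmer: Anxa5 was above Anxa6 in 5 of 5 nAAC mice, and Anxa5 above Anxa2, Anxa2 above Anxa7 and Anxa11 above Anxa4 in 5 of 5 sham mice. The other overlapping neighbours were in the order of their means in 3 or 4 of 5 mice. The order between genes also depended on the column used. In the deposited coverage Anxa5 (360) and Anxa6 (271) led in nAAC mice, and Anxa2 (86.2) was near Anxa1 (91.9), which was the higher in 2 of 5 mice. Without nAAC mouse 1 the means were 80.9 for Anxa2 and 76.6 for Anxa1. At the lower end of the deposited coverage, Anxa8 (14.8) was above Anxa4 (7.95) in 5 of 5 nAAC mice. FPKM was 11.5 times the rescaled coverage for Anxa4 and 4.41 times for Anxa2 in nAAC mice, but 1.0 times for Anxa8 and 1.03 times for Anxa5. These factors were close in sham mice (11.3, 4.36, 1.0 and 1.03), so for these genes the column used mattered to the order of levels and hardly to the ratio between groups. Anxa6 took the largest share in sham mice by coverage too, 40.3% against 28.0% in nAAC mice.

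Members were then compared with each other by the log2 ratio of a pair within each mouse, nAAC against sham, by exact permutation over mice with adjustment over the 36 pairs. Of the pairs, 23 passed an adjusted p of 0.05 and 16 had no overlap between the groups. The pairs share members and are not independent of each other. Both counts include pairs with Anxa8, which entered the test only through its level in nAAC mice. Pairs drawn from all genes tested were not examined, so both counts stand without a background and describe these pairs only. On leaving out 1 mouse, 16 to 19 pairs passed, where fewer mice raise the smallest p. Each of the 7 members that rose moved apart from Anxa6 in this way, with every nAAC ratio above every sham ratio and an adjusted p of 0.0179, the smallest reached. These 7 already separated the groups by their own levels in the same mice, while Anxa6 did not. The separation of the ratios is therefore no separate support for the rises. The difference in mean log2 ratio to Anxa6 was 1.29 for Anxa2, 1.26 for Anxa8, 1.19 for Anxa1, 1.03 for Anxa4, 0.73 for Anxa5 and Anxa3, and 0.50 for Anxa7. By FPKM the ratio of Anxa2 to Anxa6 changed sides: it was between -1.38 and -0.83 on the log2 scale in sham mice and between 0.11 and 0.38 in nAAC mice. Anxa5 did the same, from between -0.79 and -0.34 to between 0.09 and 0.33. By deposited coverage Anxa5 again changed sides (-0.54 to -0.15 in sham and 0.29 to 0.55 in nAAC mice), but Anxa2 stayed below Anxa6 in all 10 mice, at -3.12 to -2.77 in sham and -1.80 to -1.51 in nAAC mice. Anxa11 and Anxa6 were not separated (0.07, adjusted p = 0.824).

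The rises were unequal. Anxa2 rose more than Anxa5 (difference 0.56) and Anxa7 (0.79), Anxa8 more than Anxa5 (0.52) and Anxa7 (0.76), and Anxa1 more than Anxa7 (0.69), each with an adjusted p of 0.0179 and no overlap. Anxa4 also rose more than Anxa7 (0.53, adjusted p = 0.0179), but not in rescaled coverage (0.0057, adjusted p = 0.937), where the Anxa4 values of 0.599 to 1.54 lie near the 1 that is added. Comparisons with Anxa8 depended on the 1 FPKM added, since Anxa8 lay at 0.386 to 0.689 FPKM in sham mice. With 1 FPKM added, Anxa2 and Anxa8 were not separated (0.04, adjusted p = 0.641), but with 0.1 FPKM added Anxa8 rose more than each of the other 8 members, with no overlap. The log2 ratio of Anxa2 to Anxa8 then fell by 0.95, and that of Anxa8 rose by 1.02 over Anxa1, by 1.15 over Anxa4 and by 2.27 over Anxa6 (exact permutation adjusted p = 0.0143). Anxa2 against Anxa1 did not pass (0.10, adjusted p = 0.641), nor did Anxa5 against Anxa3 (0.0015, adjusted p = 1). With 5 mice per group this does not show that the last 2 pairs rose equally.

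**Figure D4:**
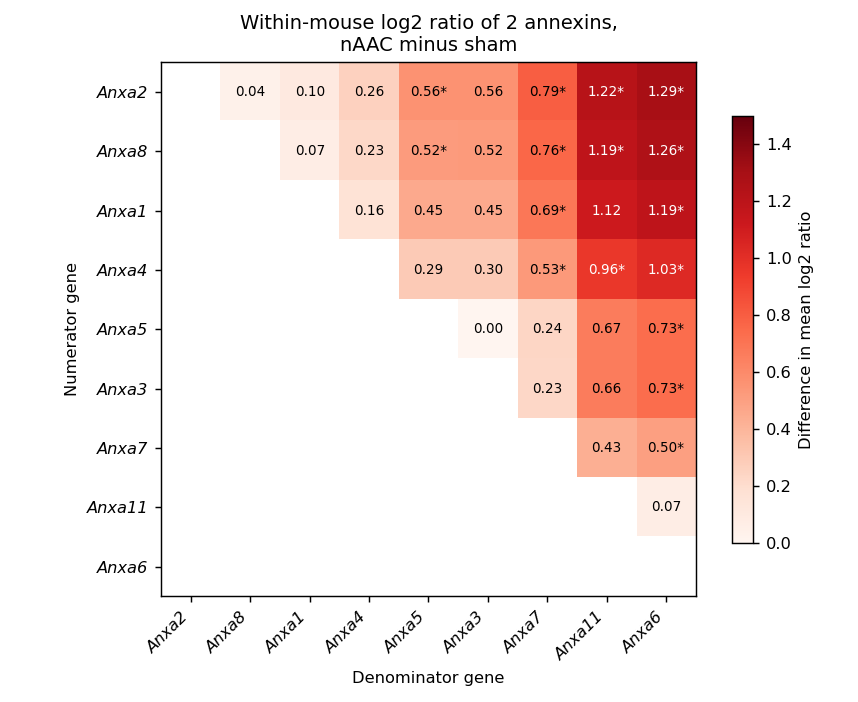
Difference between nAAC and sham mice (n = 5 each) in the mean within-mouse log2 ratio of the row gene to the column gene, on log2(FPKM + 1) values. An asterisk marks the 16 pairs whose groups do not overlap. The right-hand column, the ratios to Anxa6, reaches 1.29, and the upper left pairs, among Anxa2, Anxa8, Anxa1 and Anxa4, lie between 0.04 and 0.26, those with Anxa8 only with 1 FPKM added.

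The binding partners moved to different degrees from their annexins. S100a10 rose from 38.0 ± 6.36 to 59.6 ± 7.41 FPKM (log2 FC 0.65 ± 0.14 SE, limma adjusted p = 0.00378), less than Anxa2. The within-mouse log2 ratio of Anxa2 to S100a10 went from -0.52 ± 0.17 to 0.23 ± 0.17, a difference of 0.75 with no overlap (exact permutation p = 0.0079, adjusted p = 0.0317 over 4 partner pairs). S100a11, which binds the tail of Anxa1, rose from 30.8 ± 1.63 to 72.7 ± 6.34 FPKM (log2 FC 1.21, limma adjusted p = 4.91e-06), and its ratio to Anxa1 was not shown to change (difference 0.09, exact permutation adjusted p = 0.651). S100a6 rose from 18.8 ± 7.52 to 49.6 ± 7.42 FPKM (log2 FC 1.41, limma adjusted p = 2.50e-04), while Anxa11 did not pass. The log2 ratio of Anxa11 to S100a6 fell by 1.24, with overlapping groups (exact permutation adjusted p = 0.0317). Sri rose from 13.5 ± 0.590 to 18.7 ± 2.46 FPKM (log2 FC 0.43, limma adjusted p = 0.0124), with no call for its ratio to Anxa7 (difference 0.18, exact permutation adjusted p = 0.116). No partner ratio reached the threshold after leaving out any 1 of 7 mice (nAAC mice 1 to 4 and sham mice 1 to 3), where for Anxa2 over S100a10 the difference stayed between 0.70 and 0.82 and the adjusted p was 0.0635.

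Of the 14 S100 and ligand partner genes listed, 11 were tested, 7 rose and none fell, with a median log2 FC of 0.65 beside 0.22 for all genes tested. Of all genes tested, 27.1% were called higher, 4.6% lower and 5.01% were up-regulated DEGs. The 4 DEGs among them were S100a6, S100a11, S100a4 (log2 FC 1.17, limma adjusted p = 0.00219) and Pla2g4a, the cytosolic phospholipase A2 that releases arachidonic acid (log2 FC 1.14, limma adjusted p = 2.23e-04). After median-ratio scaling 4 of the genes were called higher, beside 13% of all genes tested.

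Of the 16 membrane repair genes tested, 7 rose and none fell, with a median log2 FC of 0.40. These counts stand beside 27.1% of all genes tested called higher, 4.6% called lower and 5.01% up-regulated DEGs. Trim72, which encodes the muscle protein MG53 that assembles repair patches at membrane wounds, was the only DEG, at 117 ± 13.8 against 57.5 ± 21.3 FPKM (log2 FC 1.08, limma adjusted p = 0.00247). Dysf, encoding dysferlin, rose by less (log2 FC 0.44, limma adjusted p = 0.00475), as did its relative Myof (0.83), the calpain gene Capn2 (0.55), Bin1 (0.66), Pdcd6ip (0.63) and Cavin1 (0.51). The count was 3 after median-ratio scaling, which called 13% of all genes higher, and 11 without sham mouse 4. Without that mouse 5806 of 11891 genes had an unadjusted limma p below 0.05 in either direction, against 5155 of 11867 with all mice. The count thus moved with the scaling and with that library, as did the calls over all genes.

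Of the 12 tested genes of phosphatidylserine exposure and recognition, 6 rose and none fell, with a median log2 FC of 0.42. The shares over all genes tested were 27.1% higher, 4.6% lower and 5.01% up-regulated DEGs. The DEGs were Axl, a receptor of the Gas6 ligand (36.2 ± 5.98 against 15.6 ± 2.61 FPKM, log2 FC 1.17, limma adjusted p = 6.58e-05), Mfge8, a secreted bridge to phosphatidylserine (76.1 ± 9.09 against 35.8 ± 9.68 FPKM, log2 FC 1.10), and the scramblase Plscr1 (10.2 ± 2.39 against 4.51 ± 1.26 FPKM, log2 FC 1.02). Gas6 (0.86), Atp11a (0.79) and Plscr3 (0.63) also rose. The receptor genes Mertk (log2 FC 0.16, limma adjusted p = 0.495) and Timd4 (mean of at most 0.402 FPKM, not tested) were not called.

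Among the 3916 genes with a mean of at least 10 FPKM, those nearest to each member over the 10 libraries were found by the root-mean-square difference of their centred log2(FPKM + 1) values. Pmepa1 was nearest to both Anxa2 (0.0995) and Anxa8 (0.0843), and Ugp2 was within the nearest 3 of both. Anxa2 itself was second nearest to Anxa8 (0.0916). Likeness to Anxa8 was measured only with 1 FPKM added, which understates the change of Anxa8. With 0.1 FPKM added, the log2 ratio of Anxa2 to Anxa8 was lower in nAAC mice by 0.95, with no overlap. S100a11 was nearest to Anxa4 (0.0877) and S100a10 was among the nearest 3 of Anxa3 (0.150). Prkar1a was nearest to Anxa3 (0.101), F2r to Anxa1 (0.164), Tubb5 to Anxa5 (0.0877), Dhx32 to Anxa7 (0.0646), Gart to Anxa6 (0.0494) and Rps13-ps1, a pseudogene whose reads could come from its parent gene, to Anxa11 (0.193). A small difference is easier to reach for a member that varies little, such as Anxa6, whose own root-mean-square deviation was 0.16 against 0.71 for Anxa2.

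The tables were checked for markers of the cell types that the LV can hold. Cardiomyocyte markers were high in all libraries, summing to 9621 to 15485 FPKM in nAAC and 13462 to 24361 FPKM in sham mice. Of 8 tested, 3 fell (Tnni3, Pln and Atp2a2) and 1 rose (Actn2), beside 4.6% and 27.1% of all genes tested. Of the fibroblast markers 5 of 7 rose, and their sum was 486 to 788 FPKM in nAAC and 389 to 405 FPKM in sham mice, although Pdgfra did not pass (log2 FC 0.26, adjusted p = 0.24). The count was 3 after median-ratio or upper-quartile scaling, with Xist as a covariate, without the filter, with the replicate number as a block, and without any 1 of nAAC mice 1, 4 and 5 and sham mice 1, 3 and 5. Of the other lists, 3 of 6 mural, 2 of 7 macrophage and monocyte and 1 of 6 endothelial markers rose and none fell, beside 27.1% of all genes tested. The macrophage and endothelial shares are near or below that background. After median-ratio scaling, which called 13% of genes higher, the counts were 2, 1 and 0, and the endothelial call was also lost without any 1 of nAAC mice 1, 4 and 5 and sham mice 1, 3 and 4. With Xist as a covariate no macrophage marker was called, in a fit where fewer of the 11867 genes had an unadjusted limma p below 0.05 (3583 against 5155). The sums for macrophages and monocytes were 139 to 277 FPKM and 91.8 to 199.7 FPKM, for mural cells 194 to 297 FPKM and 157 to 287 FPKM, and for endothelial cells 143 to 263 FPKM and 137 to 218 FPKM, in nAAC and sham mice respectively. No marker of atrial muscle (2.03 to 227 FPKM in nAAC and 3.05 to 44.7 FPKM in sham mice), mesothelium (7.0 to 22.4 and 6.38 to 10.6 FPKM), neutrophils (3.38 to 12.5 and 0.154 to 13.9 FPKM) or erythroid cells (1841 to 5027 and 1331 to 4870 FPKM) was called, and none of the T cell markers passed the filter (0.489 to 1.30 and 0.501 to 1.11 FPKM). The neutrophil marker Ly6g was listed at 0 in all 10 libraries. The part of cell composition in the rise of the annexins was not tested.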

How the data were processed

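LV RNA of 5 nAAC and 5 sham mice (1 library each) was grouped by the operation named in the labels. The authors deposited 1 gene table per mouse on mm10 with FPKM, TPM and coverage (a read-depth signal). The aligner, counting tool and use of strand are not given in the sources used here, and why FPKM and coverage have gene-specific ratios was not settled. Rows sharing a gene ID (12 to 21 per table) were summed. Coverage was rescaled by each library's most frequent FPKM to coverage ratio, and depth was estimated from that ratio, so counting error per gene is unknown.

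Genes with a mean of at least 1 FPKM were tested in limma 3.58.1 (R 4.3.3) with an empirical Bayes trend on log2(FPKM + 1) and Benjamini-Hochberg adjustment. The thresholds were an adjusted p of 0.05 and, for DEGs, an absolute log2 FC of 1, as in the study. Single values and within-mouse ratios were tested by two-sided exact permutation (Python 3.11.15). Scripts were tested on simulated data. Nothing beyond the labels shows how the mice are related, so p-values measure the spread between these samples.

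The members, gene lists and markers were chosen with earlier results of these data known. All members were named, with the partners of the ratio tests, list genes that were DEGs, and the genes nearest to each member. The other list genes, the markers and the other printed promoters were named after their values were seen. As alternatives, libraries were scaled by median ratio or upper quartile, and fits were repeated with TPM, 0.1 FPKM added, no filter, a replicate block, Xist as a covariate for sex, leaving out each mouse in turn and, chosen after seeing the data, rescaled coverage and removal of a loess trend on GC content and length (99.9% of genes had both). Protein sequences were not used here.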

Additional observations from a re-analysis of the deposited data

Results flagged for a closer look

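In 44 groups of 5 mice examined, covering the levels and shares of the members and the 4 partner ratios, 2 held a mouse far from the other 4, and 2.2 would be flagged by chance. For Anxa8, sham mouse 4 was highest on the log2(FPKM + 1) scale, with a gap to the next mouse of 0.968 of the whole range of its group, at 0.689 FPKM beside 0.386 to 0.395 FPKM in the other sham mice. For the share of Anxa11 in the summed annexin FPKM, sham mouse 5 was highest, with a gap of 0.75 of the range.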

How the results depend on the processing

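The counts of annexins called higher (7) and lower (0) were the same in all alternatives, except that 1 member, Anxa6, was called lower with the GC and length trend removed. Up-regulated annexin DEGs numbered 3 to 6, with 6 under TPM. Calls over all genes also moved between fits, and the counts here are to be set beside them. An unadjusted limma p below 0.05 was reached by 5155 of 11867 genes in the main fit. With TPM it was 7010 of 12954, and with Xist as a covariate 3583 of 11867. On leaving out 1 mouse it ranged from 4360 of 11782 (without nAAC mouse 4) to 5806 of 11891 (without sham mouse 4). The log2 FC of Anxa6 turned to -0.24 with the GC and length trend removed, -0.17 with median-ratio and -0.16 with upper-quartile scaling, and that of Anxa11 to -0.19, -0.080 and -0.067, and to -0.28 with Xist as a covariate. The cause was not tested. S100 and ligand partner genes called higher fell from 7 to 4 with median-ratio scaling and ranged from 6 to 10 on leaving out 1 mouse. Membrane repair genes called higher went from 7 to 3 with median-ratio scaling, upper-quartile scaling and the GC and length trend removed (1 was then lower), to 4 with Xist as a covariate and to 11 with TPM, and ranged from 6 to 11 on leaving out 1 mouse (11 without sham mouse 4). Of the cell type markers, 12 were higher and 3 lower, which became 7 and 5 with median-ratio scaling, 5 higher with Xist as a covariate, 5 lower with upper-quartile scaling and 6 lower with the GC and length trend removed. Partner ratios past the threshold, 2 of 4, ranged from 0 to 3 on leaving out 1 mouse, where fewer mice raise the smallest p. Same-numbered mice did not deviate together in expression (correlations -0.316 to 0.192). This cannot show whether the numbers pair the mice, for example by litter, which the labels do not give. With the replicate block 7 annexins were higher, none lower and 4 DEGs, and the block changed no member's call. Depth per gene is unknown, so no counting error can be given for Anxa8 in sham mice, which lay below 1 FPKM.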

Other observations

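The tables held 4 further rows with an annexin name, all below the filter. Anxa9 was at 0.236 ± 0.103 FPKM in nAAC and 0.145 ± 0.117 FPKM in sham mice, Anxa13 at 0.245 ± 0.0590 and 0.367 ± 0.219 FPKM, and the antisense gene Anxa11os at 0.0182 and 0.0138 FPKM. Anxa10 was listed at 0 in all 10 libraries.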
